A study of Mus musculus with 24 samples.

Results

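The 12 libraries described here are those of activated CD8 T cells and of regulatory T (Treg) cells made in culture, taken from a series of 24 bulk RNA-seq libraries of mouse T cells. They were chosen by cell type from the labels and column names, 6 per cell type. Of the 6, 1 received only DMSO, the vehicle, and each of the other 5 received a different peripheral agonist of the kappa opioid receptor (KOR) at 0.1 µM. The agonists are called WMS-64, WMS-75, WMS-76, WMS-83 and WMS-200 here, after their codes in the count table, since the suffixes that follow these codes differ between the sample titles and the treatment protocol. Per the labels the agonists are derived from perhydroquinoxaline, exposure lasted up to 5 days, all cells are of WT genotype and were polarised by standard protocols, and strain, sex and age of the mice are not stated in the labels used here. No agent of activation or polarisation is named for either cell type, and a cell type cannot be told apart from the culture conditions that made it. In the count table the CD8 libraries appear under the name Tc1.

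CD8 T cells are the killer arm of adaptive immunity. Once activated they fill secretory granules with perforin, which opens the target's membrane, and with granzymes, which start its death, and they secrete interferon gamma and chemokines. Treg cells restrain other T cells through the transcription factor Foxp3, the interleukin 2 receptor, inhibitory receptors, adenosine-producing ectoenzymes and the latent TGF-beta that Lrrc32 (GARP) holds at their surface.

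Each cell type and treatment has 1 library, so CD8 is compared with Treg over the 6 treatments with a term per compound. The p-values measure the spread left between libraries after that term, pooled over all 24 libraries of the 4 cell types. Such a pooled spread does not follow the larger SD of the Treg libraries, seen for 79.0% of the genes compared below. Whether the libraries of a cell type come from separate animals is not stated. Total counts ran from 16842562 to 20937496 in CD8 and from 15188284 to 18500457 in Treg. Each name in the count table also has a WT number of unstated meaning, 2 in all CD8 libraries, 3 in Treg DMSO and Treg WMS-200 and 2 in the other 4 Treg libraries. The 2 Treg libraries with number 3 stood apart from the other 4, as described below. Treg libraries held a smaller share of ribosomal protein counts, 2.29% ± 0.42 against 10.7% ± 0.34 in CD8 (SD, n = 6), and a larger share of lncRNA counts, 1.40% ± 0.20 against 0.823% ± 0.061. Counts from mitochondrial DNA were 0.934% to 1.498% of the total in Treg and 0.354% to 0.759% in CD8, and the 50 most abundant genes took 7.83% ± 0.19 in Treg and 14.5% ± 0.36 in CD8, in both cases without overlap. The part of these 4 shares in the results was not tested. The 12 Th1 and Th17 libraries lay with CD8 in the first share, at 9.65% to 12.8%. Expression is given as CPM, counts relative to library size after TMM scaling, and differences as log2 fold changes of CD8 over Treg ± SE from edgeR's quasi-likelihood model, so a negative value is higher in Treg.

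The sequences before the start sites of the CD8 markers Gzmb and Slamf7 and of the Treg gene Foxp3 are shown because these genes mark the 2 sides of the contrast and their transcripts did not overlap between the cell types. They are RefSeq promoters of build GRCm38.p6, 250 bases before to 50 after the start, on the gene's strand. The capitals mark the letters TGTGGT (bound by Runx factors) and TGANTCA (bound by AP-1) on either strand.
Gzmb, chr14:56262285-56262584, minus strand: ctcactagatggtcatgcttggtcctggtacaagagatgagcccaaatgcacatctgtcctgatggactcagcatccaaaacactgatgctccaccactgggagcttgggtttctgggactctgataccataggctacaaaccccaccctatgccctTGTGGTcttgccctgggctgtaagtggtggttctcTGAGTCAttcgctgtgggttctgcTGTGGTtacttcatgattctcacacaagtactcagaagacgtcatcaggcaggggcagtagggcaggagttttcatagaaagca
Slamf7, chr1:171648950-171649249, minus strand: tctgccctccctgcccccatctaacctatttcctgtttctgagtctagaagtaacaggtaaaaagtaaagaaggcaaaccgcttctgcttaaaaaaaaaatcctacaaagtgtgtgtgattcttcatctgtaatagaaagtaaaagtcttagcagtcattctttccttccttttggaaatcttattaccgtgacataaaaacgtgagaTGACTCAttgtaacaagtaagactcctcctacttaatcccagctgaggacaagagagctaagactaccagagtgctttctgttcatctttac
Foxp3, chrX:7579426-7579725, plus strand, the first of 2 entries: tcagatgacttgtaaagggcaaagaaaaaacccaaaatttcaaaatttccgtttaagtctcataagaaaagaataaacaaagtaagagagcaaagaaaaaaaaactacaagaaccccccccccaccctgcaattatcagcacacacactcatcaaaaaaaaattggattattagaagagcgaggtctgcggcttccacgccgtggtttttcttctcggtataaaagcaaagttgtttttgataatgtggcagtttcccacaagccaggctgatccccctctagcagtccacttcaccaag
The Gzmb window held TGTGGT at -93 and -34 and TGAGTCA at -58 and, not in capitals, the STAT match TTCATAGAA at 38, the Slamf7 window held TGACTCA at -42, and the Foxp3 window held none of the 8 motifs searched.

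The 8 motifs were searched on both strands in 1 promoter per gene, for 10019 of 12563 protein-coding genes with a unique symbol. Of all these promoters 12.7% held TGTGGT, against 17.8% of the 539 at least 4-fold higher in CD8 and 16.6% of the 597 at least 4-fold higher in Treg. For TGANTCA the shares were 5.07%, 10.6% and 7.71%, in the same order. The E-box CAGGTG was in 17.7%, 19.1% and 27.5%. The cAMP response element TGACGTCA was in 3.24%, 4.08% and 1.34%, and the ETS motif ACCGGAAGT in 2.34%, 0.928% and 1.01%. The STAT motif TTCNNNGAA was in 6.95%, 7.24% and 6.03%, the T-box motif AGGTGTGA in 0.978%, 1.3% and 1.51%, and the Smad motif GTCTAGAC in 0.24%, 0.371% and 0.503%. CAGGTG and AGGTGTGA can share bases. A match in so short a window is a description of letters and not of a bound site.

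The defining markers separated the 2 cell types without overlap. Gzmb, which encodes granzyme B, had 1794 to 2012 CPM (median 1908) in the CD8 libraries and 2.43 to 5.61 CPM (median 4.66) in the Treg libraries, a log2 fold change of 8.77 ± 0.21 (edgeR adjusted p = 7.79e-19). Slamf7, a receptor of the SLAM family on cytotoxic cells, had 147 to 183 CPM (median 172) in CD8 and 2.39 to 3.602 CPM (median 3.15) in Treg (5.79 ± 0.09). Every CD8 library was above every Treg library for both genes. Foxp3 was the reverse, with 1.59 to 5.32 CPM (median 3.97) in CD8. In Treg it had 162 CPM in DMSO, 208 in WMS-200, 319.7 in WMS-64, 290.3 in WMS-75, 353 in WMS-76 and 357 in WMS-83, and the log2 fold change was -6.24 ± 0.25 (edgeR adjusted p = 4.22e-14). Lrrc32 had 1.102 to 2.17 CPM (median 1.81) in CD8 and 20.6 to 62.2 CPM (median 57.98) in Treg (-4.75 ± 0.19). Both Treg markers were lowest in the Treg libraries DMSO and WMS-200. Foxp3 averaged 7.23 CPM in the Th1 libraries and 33.96 in the Th17 libraries of the series, and Gzmb 153 and 167. As the file places them, Gzmb (ENSMUSG00000015437) lies on chromosome 14 from 56496295 to 56499717, Slamf7 (ENSMUSG00000038179) on chromosome 1 from 171459971 to 171480603, Foxp3 (ENSMUSG00000039521) on chromosome X from 7439883 to 7461484 and Lrrc32 (ENSMUSG00000090958) on chromosome 7 from 98138490 to 98151388. The build of the file is not given in the sources used here and these positions are not those of GRCm38. In bulk RNA, fewer cells with a transcript and less of it per cell cannot be told apart.

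**Figure D1:**
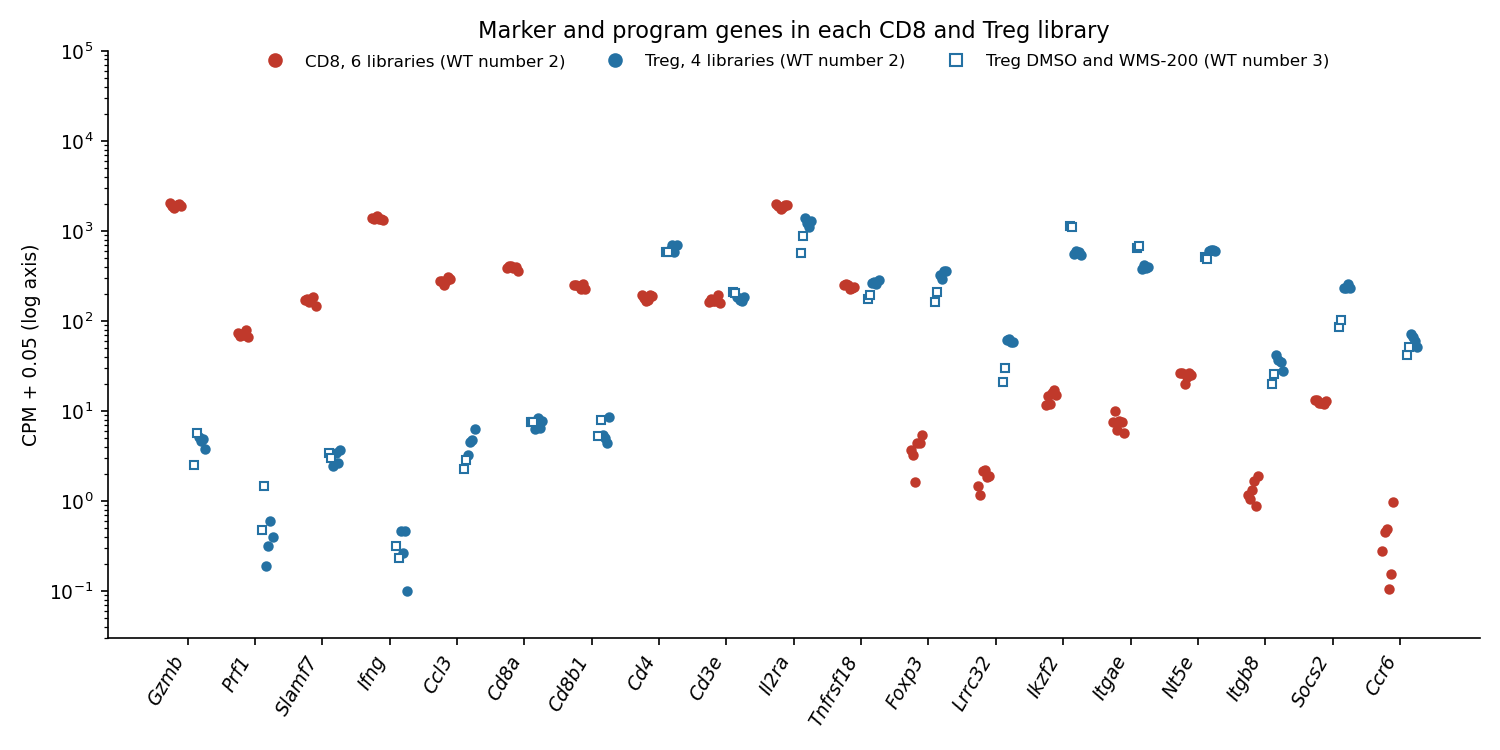
CPM plus 0.05 on a log axis for 19 marker and program genes in each of the 12 libraries, red for CD8 and blue for Treg, with open squares for the Treg libraries DMSO and WMS-200. Gzmb to Cd8b1 lie higher in CD8 and Foxp3 to Ccr6 higher in Treg without overlap, while Cd3e and Tnfrsf18 lie near each other.

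The coreceptor genes followed the labels, with 1 exception in level. Cd8a, the alpha chain of the CD8 coreceptor, had 359 to 408 CPM (median 391) in CD8 and 6.303 to 8.32 CPM (median 7.44) in Treg (5.74 ± 0.20), and Cd8b1, the beta chain, 224 to 258 CPM (median 246) and 4.39 to 8.59 CPM (median 5.24) (5.32 ± 0.18). Cd4, the coreceptor of helper and regulatory cells, was higher in Treg (-1.79 ± 0.06, edgeR adjusted p = 1.15e-18), with 582 to 704 CPM (median 604). It was still present in every CD8 library, at 167 to 196 CPM (median 183). Zbtb7b, which encodes the CD4 lineage factor ThPOK, had 89.3 ± 5.45 against 144 ± 19.8 CPM in CD8 and Treg (-0.68 ± 0.06), and Cd40lg, the helper ligand CD40L, was higher in CD8 (0.59 ± 0.14), though not without scaling factors (0.25). The part of cells with the CD4 coreceptor in the CD8 results was not tested. Runx3, the factor that silences Cd4 in the CD8 lineage, was 0.54 ± 0.07 and Cd3d, a chain of the T cell receptor complex, 1.40 ± 0.07, while Cd3e, another chain, did not pass (-0.13 ± 0.06, 95% interval -0.26 to 0.00). Of the 12 coreceptor and lineage genes 7 were higher in CD8 and 4 in Treg, with a median of 0.54.

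Across all genes 15885 of 56748 had enough counts for the test. Of these 12386 (78%) passed edgeR's test at an adjusted p under 0.05, 6001 (37.8%) higher in CD8 and 6385 (40.2%) higher in Treg, and the median log2 fold change was -0.08. A fold of at least 4 besides was met by 1044 genes higher in CD8 (6.57%) and 1236 higher in Treg (7.78%). The 6 CD8 libraries all lay above the 6 Treg libraries for 30.7% of genes and all below for 28.5%. Of all calls 48.5% were higher in CD8. Without scaling factors, which shifts the median to -0.42, the share was 35.6%, so small differences below depend on the scaling. A call is thus common among these genes, and each list below is read against these shares. The members of the lists were chosen with earlier results of these data known.

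**Figure D2:**
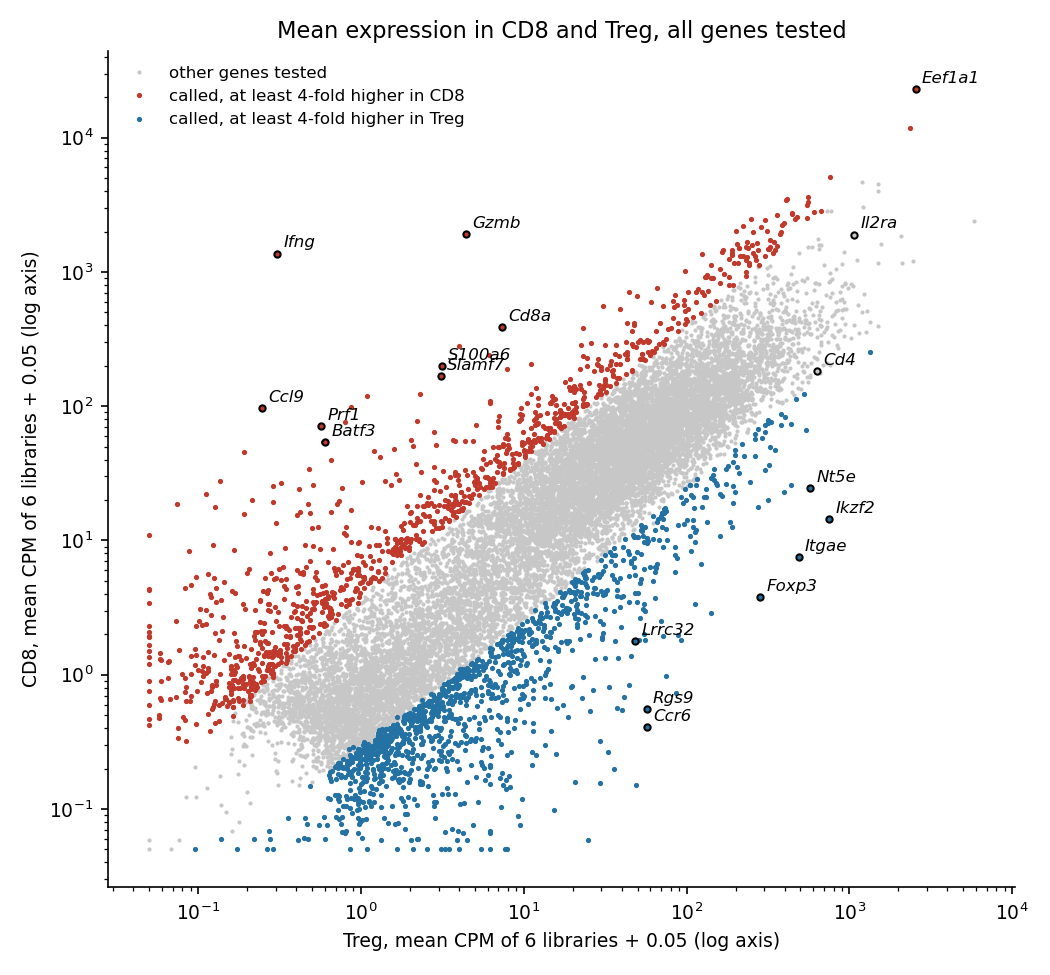
Mean CPM plus 0.05 of the 6 CD8 libraries (vertical) against the 6 Treg libraries (horizontal) for the 15885 genes tested, both axes logarithmic. Red marks the 1044 genes called and at least 4-fold higher in CD8 and blue the 1236 higher in Treg, and Ifng and Gzmb lie farthest to the upper left among abundant genes.

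Genes of the cytotoxic granule were higher in CD8 as a group. Of 20 tested members 16 were higher in CD8, 3 were higher in Treg and 1 did not pass, with a median log2 fold change of 3.40. Prf1, which encodes perforin, had 65.7 to 79.8 CPM (median 70.05) in CD8 and 0.138 to 1.404 CPM (median 0.384) in Treg (7.06 ± 0.21). Its highest Treg value was that of WMS-200. Among the granzymes Gzmc had 18.7 ± 1.73 against 0.667 ± 0.586 CPM (4.81 ± 0.32). Gzme had 379 counts and Gzmf 180 in the CD8 libraries together and 0 in Treg, so that against a floor of 3 counts over the 6 Treg libraries they were at least 143-fold and 67.9-fold higher in CD8. Gzma had only 94 counts in CD8 and 1 in Treg, a ratio of 106 with a counting interval of 18.6 to 4250. With the genes at 0 counts set to their bound the median of the list stayed at 3.40. The granule matrix proteoglycan gene Srgn had 709 ± 40.9 against 44.1 ± 4.04 CPM (4.01 ± 0.08), and the protease inhibitors Serpinb9, which shields the killer from its own granzyme B, and Serpinb6b were at 4.18 ± 0.10 and 3.31 ± 0.10. Nkg7, a granule membrane protein of killer cells, was 1.90 ± 0.10, Rab27a, which docks granules at the membrane, 1.18 ± 0.12, and the death ligand Fasl 0.63 ± 0.18, which did not pass without scaling factors (0.29).

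The 3 members higher in Treg were Ctsw, Tnfsf10 and Unc13d. Ctsw, the protease cathepsin W, had 70.5 to 88.6 CPM (median 74.7) in CD8 and 236 to 387 CPM (median 348) in Treg (-2.12 ± 0.10). Tnfsf10, the death ligand TRAIL, had 50.3 ± 4.104 against 178 ± 26.3 CPM (-1.82 ± 0.10), and Unc13d, which primes granules for release, 137 ± 2.03 against 269 ± 42.8 CPM (-0.97 ± 0.08). None of the 3 overlapped between the cell types. Gzmm, another granzyme, had 2.01 ± 0.516 against 3.02 ± 0.773 CPM and did not pass (-0.57 ± 0.27), though it passed as higher in Treg with several other settings, among them DESeq2 (-0.59), limma-voom (-0.60), length offsets (-0.77) and no scaling factors (-0.91). The list then had 4 members higher in Treg, beside 15 higher in CD8 without scaling factors.

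The largest difference of all named genes was in Ifng, which encodes interferon gamma. It had 1316 to 1475 CPM (median 1348) in CD8 and 0.0493 to 0.414 CPM (median 0.239) in Treg, a log2 fold change of 12.34 ± 0.24 (edgeR adjusted p = 5.04e-21). Of 23 cytokine genes 15 were higher in CD8 and 5 in Treg, with a median of 1.12. Il21, a helper cytokine, had 39.9 to 54.8 CPM (median 45.01) in CD8 and at most 0.498 CPM in Treg (8.24 ± 0.24). Il3, a growth factor of myeloid cells, had 2035 counts in CD8 and 3 in Treg, a ratio of 768 with a counting interval of 262 to 3730. Il2, the T cell growth factor, had 78.1 ± 9.15 against 2.15 ± 0.637 CPM (5.18 ± 0.20). Treg cells are known as consumers of this growth factor rather than makers. Penk, the precursor of enkephalin opioid peptides, had 538 to 601 CPM (median 567) in CD8 and 67.1 to 113 CPM (median 98.00) in Treg (2.55 ± 0.17). Oprk1, the receptor targeted by the compounds, had 2 counts in CD8 and 0 in Treg. Higher in Treg were Il16 (-1.003 ± 0.07) and Ltb, the lymphotoxin beta chain (-0.71 ± 0.08). Il10, a suppressive cytokine, was low in both, at 1.36 ± 0.7501 against 0.601 ± 0.396 CPM, and was higher in CD8 (1.21 ± 0.39).

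Chemokine genes had the highest list median, 4.22, with 11 of 13 higher in CD8 and 2 in Treg. Ccl9 had 83.3 to 108 CPM (median 97.8) in CD8 and 0 to 0.6901 CPM (median 0.121) in Treg (8.86 ± 0.29). Cxcl10, a ligand of the receptor CXCR3, had 25.3 ± 3.101 against 0.237 ± 0.149 CPM (6.68 ± 0.28), and Cxcl11, another, had 468 counts in CD8 and 0 in Treg, at least 177-fold higher. A further 3 inflammatory chemokines were chosen here after their values were seen. Ccl3 had 280.0 ± 18.3 against 3.96 ± 1.51 CPM (6.15 ± 0.21), Ccl4 204 ± 16.5 against 11.04 ± 2.81 CPM (4.22 ± 0.16) and Ccl5 31.3 ± 5.03 against 1.602 ± 0.535 CPM (4.28 ± 0.18). Xcl1, which draws cross-presenting dendritic cells and was chosen in the same way, had 386 ± 38.2 against 23.1 ± 4.06 CPM (4.06 ± 0.14). The exceptions were Ccl20, the ligand of CCR6, with 0.113 to 0.783 CPM (median 0.467) in CD8 and 5.25 to 28.8 CPM (median 23.01) in Treg (-5.29 ± 0.50), and Ccl25 (-0.96 ± 0.18).

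Homing receptors split between the cell types, with 12 of 31 higher in CD8, 14 in Treg and a median of -0.10 (15 and 14 with length offsets). Selp, which encodes P-selectin, had 50.4 to 59.00 CPM (median 53.2) in CD8 and 0 to 1.06 CPM (median 0.543) in Treg (6.66 ± 0.24). On the Treg side Ccr6 had 0.0556 to 0.927 CPM (median 0.313) in CD8 and 41.6 to 71.9 CPM (median 56.1) in Treg (-7.32 ± 0.25), and Cx3cr1, the fractalkine receptor, 0.108 ± 0.116 against 20.7 ± 4.504 CPM (-7.49 ± 0.40). Itgae, the integrin alpha E chain that binds E-cadherin on epithelium, had 5.56 to 10.02 CPM (median 7.56) in CD8 and 379.7 to 687 CPM (median 407) in Treg (-6.01 ± 0.15). Chosen after their values were seen, the receptors Ccr8 and Cxcr4 were higher in Treg (-2.64 ± 0.11 and -3.03 ± 0.11).

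Among SLAM and NK-type receptors 13 of 20 were higher in CD8 and 4 in Treg, with a median of 0.76. Beside Slamf7, Crtam, an adhesion receptor of activated cytotoxic cells, had 169.8 to 200.1 CPM (median 191) in CD8 and 5.08 to 13.7 CPM (median 6.97) in Treg (4.61 ± 0.16). The activating receptor gene Klrk1 (NKG2D) and the inhibitory Klrc1 (NKG2A), chosen after their values were seen, had 54.98 ± 5.08 against 4.86 ± 0.751 CPM and 47.3 ± 4.42 against 7.84 ± 3.39 CPM, respectively (3.51 ± 0.10 and 2.61 ± 0.21). Cd96 (-1.05 ± 0.07) and the adaptor Sh2d1a (-0.85 ± 0.09) were higher in Treg. Inhibitory receptors gave 8 of 16 higher in CD8 and 5 in Treg, but 6 and 6 with WT number 2 alone, 6 and 7 with upper-quartile factors and 6 and 8 without scaling factors. Havcr2 (TIM-3) was 3.17 ± 0.22 and Lag3 2.22 ± 0.09, while Ctla4, which removes costimulatory ligands from antigen-presenting cells, had 73.5 to 84.3 CPM (median 78.9) in CD8 and 243 to 369.6 CPM (median 343) in Treg (-2.01 ± 0.10), and Cd200r1 was -2.33 ± 0.20. Of 15 costimulatory receptors 7 were higher in CD8 and 4 in Treg, but 7 and 8 with WT number 2 alone, 7 and 7 with upper-quartile factors or length offsets and 6 and 8 without scaling factors. Tnfrsf8 (CD30) was at 4.83 ± 0.12 and Cd28, the main costimulatory receptor, at 2.05 ± 0.07, and Tnfrsf25 (DR3) at -1.61 ± 0.11.

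Cytokine receptors were divided, with 11 of 28 higher in CD8, 13 in Treg and a median of 0.00. Il1rl1, the interleukin 33 receptor, had 26.03 ± 1.74 against 1.47 ± 0.554 CPM (4.15 ± 0.18) and Il23r 5.14 ± 0.284 against 0.295 ± 0.239 CPM (4.08 ± 0.33). Il12rb2, a chain of the interleukin 12 receptor chosen after its values were seen, had 289.7 ± 13.8 against 46.2 ± 5.92 CPM (2.65 ± 0.10). Il9r (-4.12 ± 0.31) and Il6ra, the interleukin 6 receptor (-2.96 ± 0.08), were higher in Treg. Il2ra (CD25), the high-affinity chain of the interleukin 2 receptor and a classical Treg marker, was higher in CD8, with 1764 to 1983 CPM (median 1904) against 564 to 1376 CPM (median 1160.5) (0.85 ± 0.13, edgeR adjusted p = 1.51e-06). Both cell types expressed it in every library.

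Of the 25 genes of the Treg program 18 were higher in Treg, 4 were higher in CD8 and 3 did not pass, with a median of -1.62, and 11 were at least 4-fold higher in Treg. Ikzf2, which encodes the Treg factor Helios, had 11.7 to 16.9 CPM (median 14.9) in CD8. In Treg it had 1137 CPM in DMSO and 1103 in WMS-200 and 540 to 601 in the other 4 libraries (-5.67 ± 0.22). The related factor Ikzf4 (Eos) was -3.18 ± 0.08, and Gata3, which many Treg cells of tissues express, -2.39 ± 0.08. Nt5e (CD73) and Entpd1 (CD39), the ectoenzymes that turn extracellular ATP into adenosine, had 24.6 ± 2.63 against 572 ± 55.5 CPM (-4.54 ± 0.09) and 1.44 ± 0.317 against 16.2 ± 3.44 CPM (-3.48 ± 0.20). Socs2, a feedback inhibitor of cytokine signals, had 11.8 to 13.3 CPM (median 12.4) in CD8 and 86.4 to 253 CPM (median 229.5) in Treg (-3.86 ± 0.22). Dusp4, a MAP kinase phosphatase, was -1.88 ± 0.06, Ebi3, a chain of interleukin 35, -2.39 ± 0.15, and Nrp1, a receptor of thymus-derived Treg cells, -0.52 ± 0.08. The 4 members higher in CD8 were Il10, Il2ra, Icos (1.20 ± 0.06) and Tigit (0.64 ± 0.09). Tnfrsf18 (GITR), Tnfrsf4 (OX40) and Gpr83 did not pass, with 240.4 ± 12.4 against 240.0 ± 44.8 CPM, 197 ± 7.01 against 205 ± 35.04 CPM and 2.02 ± 0.711 against 2.41 ± 0.945 CPM.

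The TGF-beta pathway was higher in Treg in 16 of 22 members and higher in CD8 in 6 (3 without scaling factors), with a median of -1.17. At the level of ligand handling Tgfb1, the main ligand in T cells, had 175 ± 12.7 against 341 ± 34.2 CPM (-0.96 ± 0.06), Lrrc32 presents its latent form, and Itgb8, the integrin chain that releases it, had 0.835 to 1.85 CPM (median 1.19) in CD8 and 20.04 to 42.05 CPM (median 31.5) in Treg (-4.59 ± 0.19). Tgfb2 went the other way, with 8.76 ± 0.994 against 0.291 ± 0.158 CPM (4.89 ± 0.27). The receptor gene Tgfbr1 and the inhibitors Skil and Smad7, chosen after their values were seen, were -3.16 ± 0.09, -1.83 ± 0.06 and -1.67 ± 0.07. The signal carriers Smad2 (0.50 ± 0.06) and Smad4 (0.25 ± 0.05) were slightly higher in CD8, the latter not without scaling factors, where it was -0.09.

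The 10 largest differences towards Treg among genes with a mean log2 CPM of at least 1 included Foxp3 and Ccr6. Vipr2, a receptor for vasoactive intestinal peptide, was -7.99 ± 0.29, Rasgrp3, an activator of Ras, -7.86 ± 0.38, and Rgs9, a regulator of G protein signalling, -6.79 ± 0.22. Tead1, the DNA-binding partner of YAP, had 0.167 to 0.801 CPM (median 0.481) in CD8 and 14.04 to 55.5 CPM (median 50.7) in Treg (-6.28 ± 0.48). Sspo was -6.99 ± 0.33, Tmem121b -7.18 ± 0.28 and Adamtsl2 -6.24 ± 0.31. The 10 towards CD8 included Ifng, Ccl9, Gzmb, Il21, Ly6c2, a marker of activated and memory CD8 cells (8.21 ± 0.23), Prf1, Nkain1 (6.83 ± 0.35), Plac8 (6.83 ± 0.16) and Cxcl10.

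Transcription factors of effector and memory cells did not lean one way as a list. Of 33 tested, 16 were higher in CD8 and 14 in Treg, with a median of 0.00. The counts were 15 and 18 without scaling factors and 18 and 12 with length offsets (median 0.34). Batf3, an AP-1 family factor, had 47.2 to 62.9 CPM (median 51.3) in CD8 and 0.213 to 0.888 CPM (median 0.486) in Treg (6.58 ± 0.18). Prdm1, which encodes Blimp-1 and drives terminal effector differentiation, was 3.09 ± 0.17, Eomes, a T-box factor of killer cells, 2.36 ± 0.18, and Satb1, a chromatin organiser, had 1249 ± 24.2 against 183 ± 59.7 CPM (2.80 ± 0.13). Tbx21 (T-bet), the T-box factor that activates Ifng, was chosen after its values were seen and had 211 to 242 CPM (median 222) in CD8 and 24.6 to 32.3 CPM (median 28.8) in Treg (2.97 ± 0.07). Towards Treg stood Tox2 (-5.997 ± 0.42). Maf and Klf2, also chosen after their values were seen, were -3.87 ± 0.16 and -3.35 ± 0.12. Runx1, a partner of Foxp3, was -2.03 ± 0.07. Of all 934 tested genes with a transcription factor family in the file 243 were higher in CD8 and 476 in Treg (median -0.26). The counts were 139 and 612 without scaling factors, and 288 and 397 with length offsets (median -0.11). Single families differed and are given after their values were seen. Of the 13 in the nuclear receptor family that the file labels THR-like 1 was higher in CD8 and 10 in Treg. Of the 45 that it labels TF_bZIP, 24 were higher in CD8 and 14 in Treg.

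Most listed nuclear genes of energy metabolism and biosynthesis were higher in CD8. Of 19 glycolysis and lactate entries, in which Aldoa counts under 2 identifiers, 16 were higher in CD8 and 2 in Treg, with a median of 2.28. Hk2, a hexokinase that phosphorylates glucose, had 261 to 303 CPM (median 289.5) in CD8 and 16.5 to 26.8 CPM (median 23.9) in Treg (3.68 ± 0.09), and Tpi1 was 3.54 ± 0.10. Pfkfb3, a regulator of phosphofructokinase, was higher in Treg (-0.53 ± 0.06). All 20 nuclear genes listed for oxidative phosphorylation were higher in CD8, with a median of 1.53. Among them Uqcrq was at 2.69 ± 0.09 and Ndufa1 at 2.69 ± 0.14. Without scaling factors 1 of the 20 no longer passed. Of 12 tested protein genes encoded in mitochondrial DNA itself, 1 was higher in CD8, 4 in Treg and 7 did not pass (median -0.37). Over the libraries of WT number 2 alone it was 1 and 8 (median -0.74), and without scaling factors 1 and 7 (-0.70). Of 20 amino acid transport and one-carbon genes 18 were higher in CD8 and 2 in Treg, with a median of 1.45, Slc7a11, the cystine transporter, at 4.39 ± 0.44 and Trib3 at 2.94 ± 0.11. Cholesterol and fatty acid synthesis had 15 of 25 higher in CD8 and 5 in Treg, with Fasn, the fatty acid synthase, at 1.10 ± 0.11 and Scd1, a desaturase, at -3.64 ± 0.20. This list went to 9 and 10 without scaling factors.

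Genes of translation were mostly higher in CD8. Of 81 cytosolic ribosomal protein genes 78 were higher in CD8 and 1 in Treg, with a median of 2.61, and Rplp1 was 3.35 ± 0.13. Eef1a1, an elongation factor, was the most abundant named gene per length in both cell types, with a level of 28043 ± 921 TPM (a length-scaled level, SD, n = 6) in CD8 and 5252 ± 1250 in Treg. Per length, the 6 most abundant nuclear genes of CD8 were Eef1a1, Rplp1, Eef2, Rps3a1, Rpl4 and Rplp0, and those of Treg were Eef1a1, H2-K1, Eef2, B2m, Rpl4 and Tmsb4x. Genes of the actin skeleton and migration were higher in CD8 in 17 of 20 cases and in Treg in 3, with a median of 1.68. S100a6 had 179 to 244 CPM (median 193) in CD8 and 1.54 to 3.68 CPM (median 3.43) in Treg (6.02 ± 0.18), while the giant scaffold gene Ahnak was higher in Treg (-1.68 ± 0.10). In the proliferation list 14 of 23 were higher in CD8 and 5 in Treg (13 and 8 with WT number 2 alone, 11 and 8 without scaling factors), and named members lay on both sides, with the replication licensing gene Mcm3 at 1.73 ± 0.10 and the cell cycle marker Mki67 at 399 ± 50.9 against 1073 ± 249 CPM (-1.42 ± 0.11).

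Smaller groups had members on both sides. Of 22 interferon-stimulated genes 7 were higher in CD8 and 11 in Treg, with Oas1a at 4.25 ± 0.37 and Oasl2 at -3.25 ± 0.63. Retinoid pathway genes had 8 of 11 higher in Treg and 2 in CD8, the binding protein gene Crabp2 at 47.8 ± 5.12 against 1.54 ± 0.0984 CPM (4.94 ± 0.11) and the retinol importer gene Stra6 (3.05 ± 0.18), while the receptor gene Rara was -1.58 ± 0.07. The cAMP and G protein list had 11 of 31 higher in CD8 and 14 in Treg (15 and 14 with length offsets), with Rgs2 at 3.54 ± 0.11 and Pde4a, which degrades cAMP, at 1.78 ± 0.3102 against 91.9 ± 12.2 CPM (-5.70 ± 0.18). Gnai1, an inhibitory G protein subunit, had 40 counts in CD8 and 0 in Treg, at least 15.1-fold higher. In the adenosine list the receptor gene Adora2a had 206 ± 13.3 against 36.6 ± 4.19 CPM (2.50 ± 0.08), opposite to Nt5e and Entpd1. Among genes of DNA methylation and chromatin, 7 of 19 were higher in CD8 and 9 in Treg, with the demethylation gene Tet1 at -1.94 ± 0.19 and the Polycomb gene Eed at 1.01 ± 0.05. Semaphorin genes ranged from Sema3b (6.29 ± 0.24) to the receptor gene Plxna3 (-3.25 ± 0.13).

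**Figure D3:**
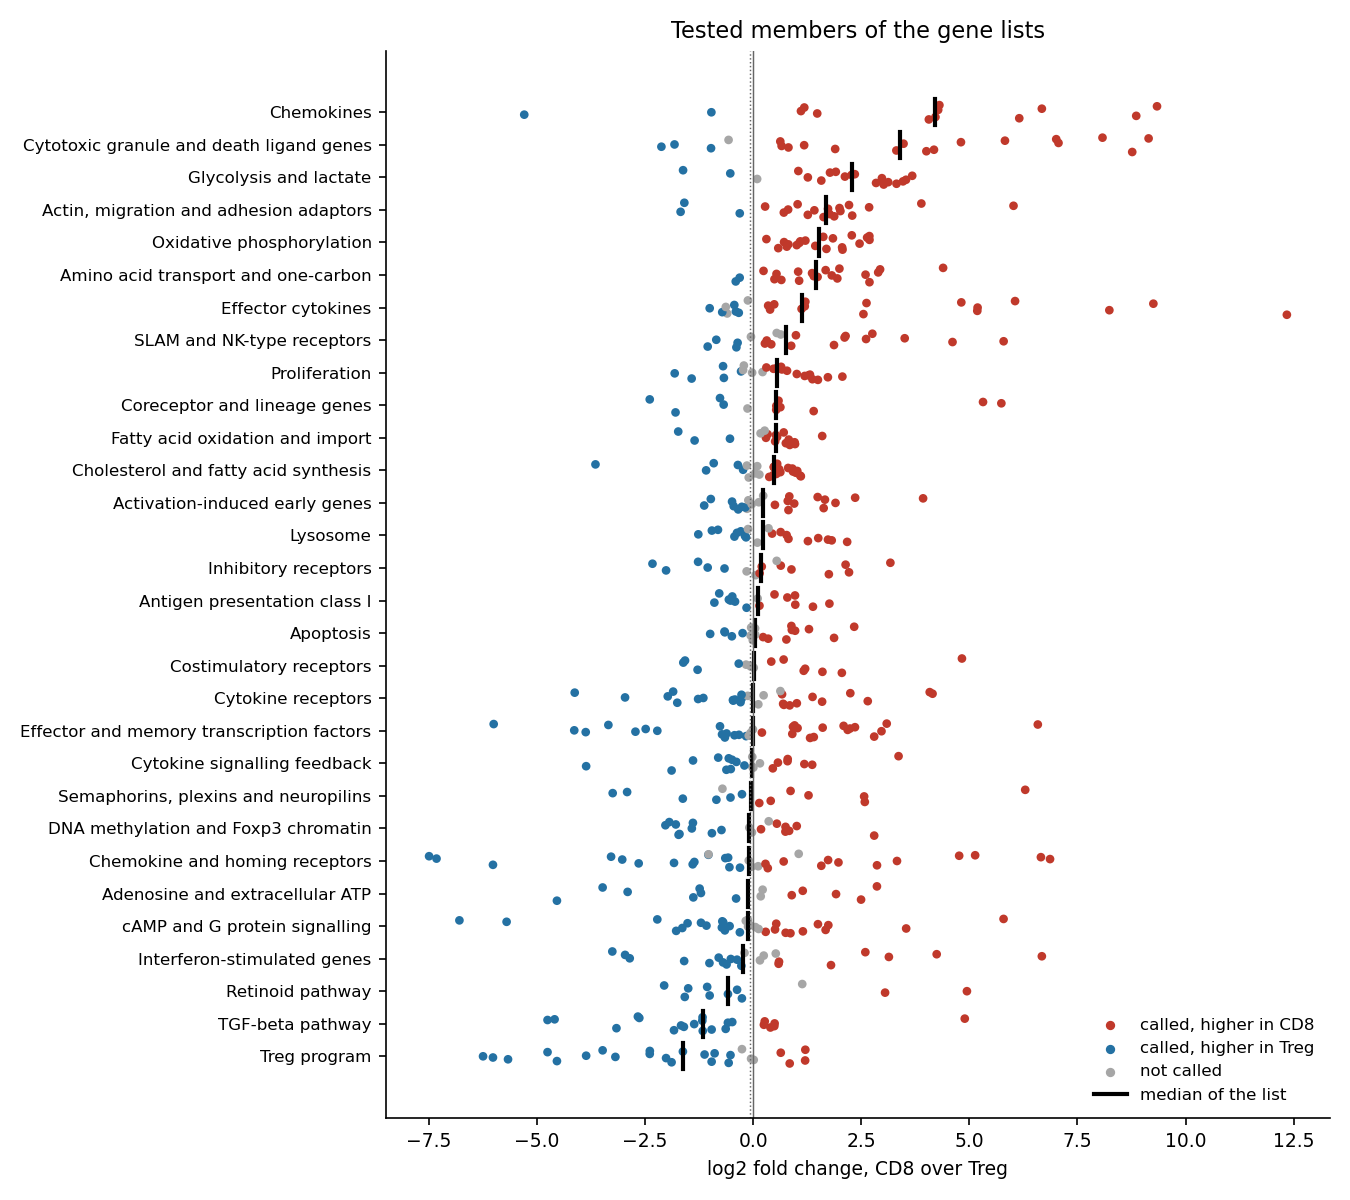
Log2 fold change of CD8 over Treg for each tested member of 30 gene lists, ordered by the list median (black bar), with red and blue for members called higher in CD8 and in Treg and grey for members not called. The dotted line is the median of all genes, -0.08, and chemokine and cytotoxic genes lie farthest to the right and the Treg program farthest to the left.

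The fold change followed gene length. With the genes in 10 groups of equal size by length, its median was 0.21 in the shortest group and -0.40 in the longest, and the share of genes called higher in Treg went from 29.96% to 57.7%. Over genes, Spearman's correlation with length was -0.124, and 0.015 after offsets that reduce the trend in each library. Genes share these libraries and are not independent, so no p is given. With the offsets the cytotoxic list kept 16 higher in CD8 and had 4 higher in Treg (median 3.20), the Treg program 4 and 19 (-1.37), the TGF-beta pathway 6 and 16 (-0.98) and the ribosomal protein genes 78 and 2 (2.43). In other classes, 902 of 1596 lncRNA genes were higher in Treg and 164 in CD8, with a median of -0.98, and 473 of 782 processed pseudogenes were higher in CD8 and 109 in Treg, with a median of 1.16 (365 and 58 of 653 with WT number 2 alone). Reads of ribosomal protein and glycolysis genes can be shared with their pseudogenes, so these counts are uncertain. The part of length, RNA quality and library preparation in the differences between CD8 and Treg was not tested beyond these offsets.

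**Figure D4:**
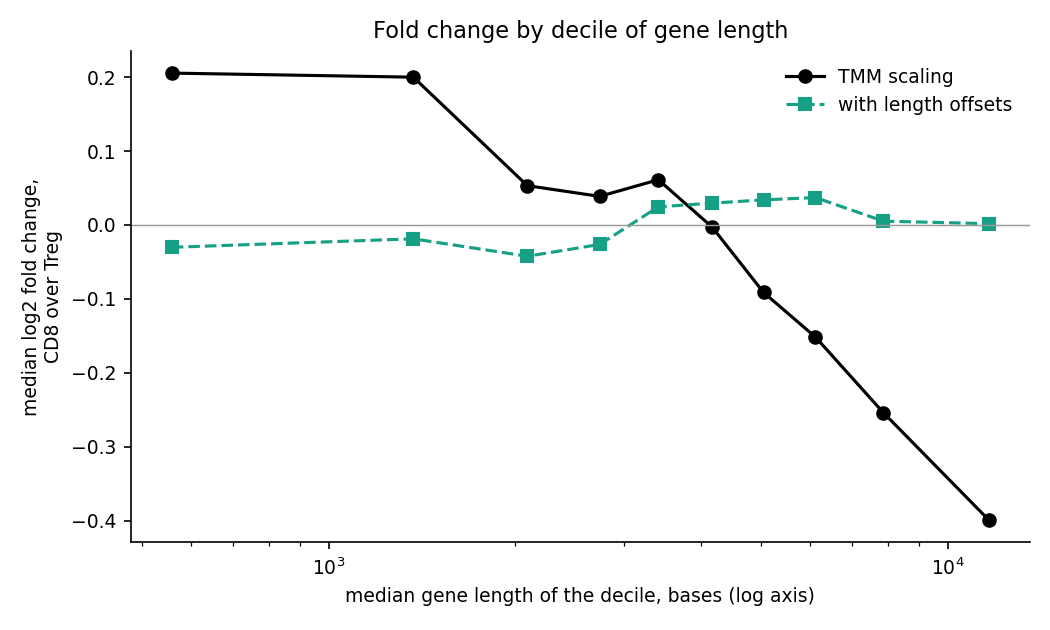
Median log2 fold change of CD8 over Treg in 10 groups of genes of rising length, against the median length of each group on a log axis, with TMM scaling (black) and with length offsets (green). The black line goes from 0.21 to -0.40 and the green line stays near 0.

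Markers of other cell types were mostly low. The 10 B cell markers summed to 82.3 to 88.5 CPM in CD8 and 118.5 to 166.7 in Treg, mainly Ighm, the mu heavy chain, with means of 71.6 and 118.5 (-0.72 ± 0.08). Of the 9 tested 2 were higher in CD8 and 4 in Treg, with a median of -0.72. Ighd, the delta heavy chain, averaged 1.74 CPM in CD8 and 18.1 in Treg (-3.39 ± 0.22), and Cd79a, a chain of the B cell receptor, 1.48 and 3.63 (-1.34 ± 0.23), and Ms4a1 (CD20) 0.289 and 1.05. In the other direction Ebf1, a B lineage factor, averaged 3.13 CPM in CD8 and 0.575 in Treg (2.45 ± 0.28), and Cd79b, the partner chain of Cd79a, 4.40 and 2.204 (0.97 ± 0.22). The 15 myeloid markers summed to 22.8 to 27.5 CPM in CD8 and 9.33 to 13.02 in Treg, mainly Cd68, with S100a8, S100a9 and Clec9a at 0 counts in all 12 libraries. The NK and gamma delta markers found in the file (8 of 11) summed to 92.1 to 105.6 CPM in CD8 and 12.7 to 31.7 in Treg, mainly Eomes, with Ncr1 at 0.480 and 0.0152. Erythroid and stromal sums were at most 2.06 and 61.1 CPM, the latter mainly Pecam1. The 8 Th17 markers summed to 32.5 to 35.9 CPM in CD8 and 99.2 to 280.2 in Treg. Of the sum, Ccr6 made up 57.1 and Ccl20 18.6 CPM on average in Treg, whereas Il17a, the defining cytokine, was higher in CD8, with 16.1 ± 1.49 against 0.438 ± 0.326 CPM (5.19 ± 0.34), and Il23r too. For comparison, Ccl20 averaged 53.02 CPM in the Th17 libraries. The part of other cells in these differences was not tested.

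The Treg libraries varied more among themselves than the CD8 libraries. Over 11648 genes with a mean log2 CPM of at least 1, the root mean square log2 distance between 2 CD8 libraries was 0.252 to 0.332, and between 2 Treg libraries 0.270 to 0.350 when their WT number was the same and 0.413 to 0.554 when it was not. Between CD8 and Treg it was 1.205 to 1.503. The SD between the 6 libraries was larger in Treg for 79.0% of genes. Of these genes 25.5% were higher in all 4 Treg libraries of number 2 than in DMSO and WMS-200 and 15.2% were lower in all 4. Lrrc32 had 20.6 to 29.7 CPM in the libraries of number 3 and 57.7 to 62.2 in those of number 2, Ccl20 5.25 to 5.39 and 22.2 to 28.8, Socs2 86.4 to 101 and 229 to 253 and Tead1 14.04 to 19.5 and 50.6 to 55.5. Ikzf2 and Itgae went the other way, with 1103 to 1137 and 540.3 to 601 for Ikzf2 and 652 to 687 and 379.7 to 418 for Itgae, and so did Satb1 (254 to 264 and 134 to 153) and Eomes (26.8 to 29.4 and 11.01 to 16.4). Of the Treg program only Ikzf2 and Itgae were lower in all 4 libraries of number 2. More members were higher in all 4, among them Foxp3, Lrrc32, Ctla4, Socs2, Il2ra, Nt5e, Nrp1, Tnfrsf18, Tnfrsf4 and Gpr83. The remaining members overlapped between the WT numbers. Over the 8 libraries of the 4 compounds whose CD8 and Treg libraries both have number 2, Foxp3 was -6.41, Ikzf2 -5.24, Gzmb 8.72 and Ifng 12.25, and 10772 of the 12386 calls were made in the same direction. In that fit Tnfrsf18, Tnfrsf4 and Gpr83, a G protein-coupled receptor, passed as higher in Treg, at -0.18, -0.20 and -0.75, so that 21 of 25 members of the Treg program were higher in Treg.

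**Figure D5:**
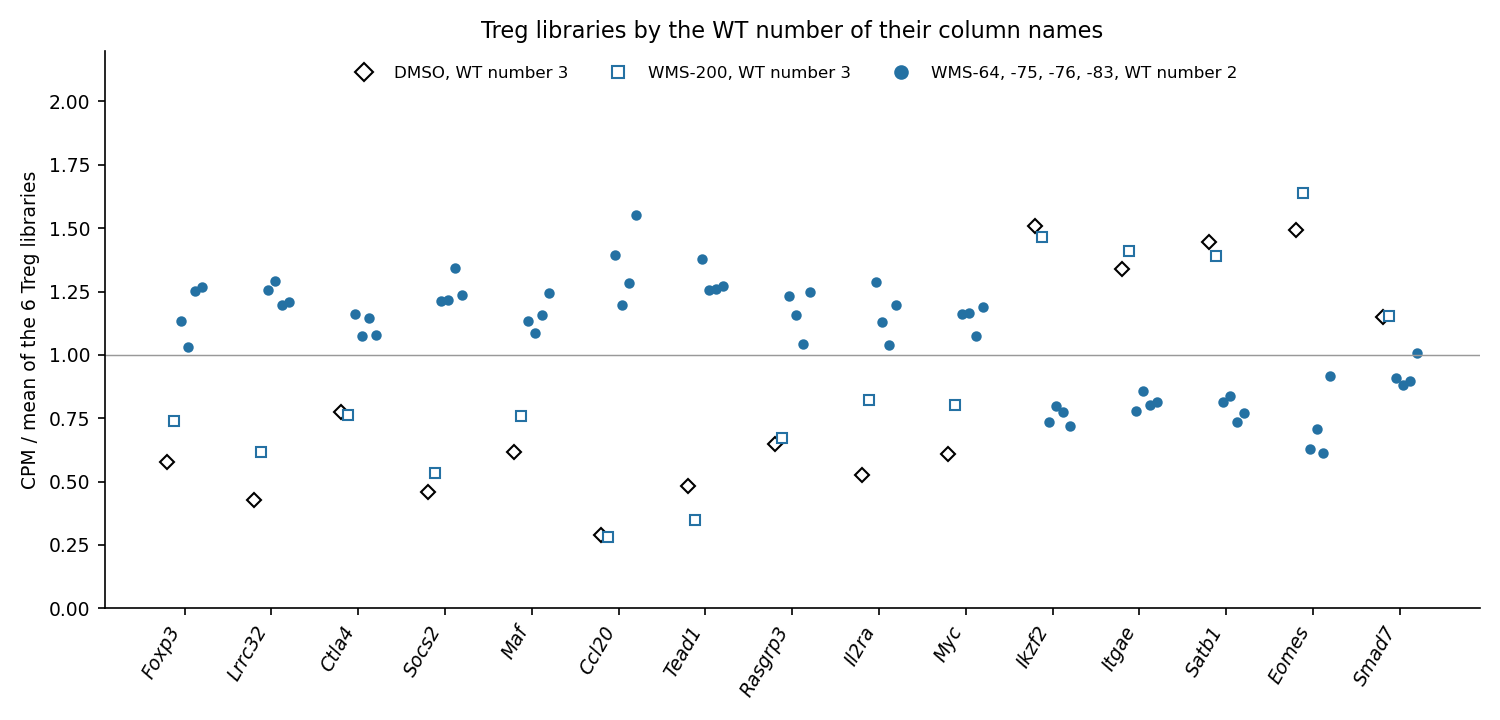
CPM of 15 genes in each Treg library divided by the mean of the 6, with open symbols for DMSO and WMS-200 (WT number 3) and filled circles for the other 4 (WT number 2). Foxp3 to Myc are lower in the open symbols, and Ikzf2 to Smad7 higher.

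The design also allows the contrast of agonists with DMSO to be compared between CD8 and Treg, with 1 DMSO library in each. With the 5 agonist libraries of a cell type taken as replicates and set against its lone DMSO library, 1 gene passed in CD8 (0.0063%), the predicted gene Gm2606 (-3.48 ± 0.46), and 1401 in Treg (8.82%), 1213 of them higher with agonist. The difference between these contrasts passed edgeR's test for 71 genes (0.447% of those tested), 3 higher and 68 lower in CD8 relative to Treg, and 2577 had an unadjusted p under 0.05. The 3 were Gm8369 (0.78 ± 0.16), Atp10d (1.07 ± 0.25) and Gm15726 (5.58 ± 1.32), and these and Gm2606 are given because so few genes passed. Leaving out any 1 of the 10 agonist libraries moved this count by over 1.5 times. It was 1105 without Treg WMS-200, 21 to 44 without 1 of the other Treg libraries, 39 without CD8 WMS-64 and 10 to 17 without 1 of the other CD8 libraries. The 5 genes of smallest p were Il2ra, Csf2, Snrpd3, C1qbp and Srxn1, each with an edgeR adjusted p of 0.0195. In Treg Il2ra had 564 CPM in DMSO, 879 in WMS-200 and 1111 to 1376 in the other 4, a change of 1.05 ± 0.16, while in CD8 DMSO had 1983 and the agonists 1764 to 1954 CPM (-0.08 ± 0.14). The cytokine gene Csf2 had 4.39 CPM in Treg DMSO and 10.6 to 16.6 with agonists, and Srxn1, an antioxidant enzyme, 1.37 and 3.57 to 4.88. The difference of contrasts was -1.13 ± 0.21 for Il2ra, -2.10 ± 0.36 for Csf2, -1.15 ± 0.21 for the splicing gene Snrpd3, -1.04 ± 0.19 for the mitochondrial protein gene C1qbp and -1.89 ± 0.34 for Srxn1. In Treg 4 of the 5 agonists also differ from DMSO in WT number, so agonist and WT number cannot be told apart there. Within number 3, where 1 library of WMS-200 stands against 1 of DMSO, edgeR called 0 genes whose effect differed from that of the agonists in CD8, with 1386 at an unadjusted p under 0.05. That contrast uses libraries by which the 5 genes above were chosen and is no separate check of them, and their edgeR adjusted p-values there were 0.169 to 0.227.

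Some abundant genes differed by small amounts only, though small differences could still pass the test. Among the 6 of highest mean CPM whose 95% interval lay within 0.5 of 0, Ptprc (CD45), the common leukocyte phosphatase, had 1522 to 1665 CPM (median 1631) in CD8 and 1359 to 1855 CPM (median 1510.0) in Treg (0.04 ± 0.08, interval -0.11 to 0.20). With length offsets Ptprc was 0.60 and passed (edgeR adjusted p = 9.11e-09). The MHC class I gene H2-K1 was -0.15 ± 0.07. Ccr7, a lymph node homing receptor, was 0.34 ± 0.07 and passed as higher in CD8 (edgeR adjusted p = 0.00016), but was -0.000296 without scaling factors. Msn, which links actin to the membrane, was 0.35 ± 0.06 and Ddx5, an RNA helicase, -0.36 ± 0.06. Over the libraries of WT number 2 alone Msn (0.36) and Ddx5 (-0.36) passed, while H2-K1 (-0.12) did not.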

How the data were processed

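Poly(A) RNA of 24 bulk libraries was sequenced, 12 of them described here. The authors deposited unnormalized counts of reads for each gene. Per the submitters' processing notes fastp, HISAT2 and featureCounts were used, with versions, strand setting and genome build not given in the sources used here. Antisense and near-identical genes may therefore share reads. Gene length and biotype are the authors' annotation in the deposited table.

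Genes passing filterByExpr (minimum count 10) were fitted with edgeR 4.0.16 (R 4.3.3), robust quasi-likelihood, TMM factors and a design of cell type plus compound over all 24 libraries, which share 1 estimate of the spread (15 residual df, biological coefficient of variation 0.133). P-values were adjusted by Benjamini-Hochberg over 15885 genes. The agonist effect was fitted with DMSO and pooled agonists as separate groups of each cell type (16 df). CPM are TMM-scaled, and TPM were computed from counts and gene length. Alternatives used DESeq2 1.42.0, limma 3.58.1, other scalings, filters, offsets for gene length and left-out libraries. The script was tested on simulated data, where the length offsets left part of the trend. They failed the first limit set for this, which was then replaced by another.

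The members and lists were chosen with earlier results of these data known. Named genes are the 4 markers, the cytotoxic, Treg and coreceptor lists, the 10 largest folds in each direction, the 2 largest in each direction of every other list with the member nearest 0, the 6 most abundant per length, the 6 most abundant with a small interval and the 5 of smallest p for the agonist difference. Some genes are not reported here. Others were named after their values were seen, including Myc and Smad7 in the plot of Treg libraries and the markers of other cells. Same-compound libraries of CD8 and Treg did not deviate together (correlations -0.195 to 0.0641, 0 of 6 pairs over 0.1). The Treg deviations include the split by WT number, which CD8 lacks, so these correlations cannot show whether such libraries share a source. The compound term is therefore not taken as a pairing by source.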

Additional observations from a re-analysis of the deposited data

Results flagged for a closer look

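With 1 DMSO library in each cell type, the calculated difference between CD8 and Treg in agonists against DMSO passed the test for 71 genes, but for 4 in the 12 libraries alone, 1 with limma-voom and 0 within WT number 3. Among the 71 were the 5 genes named above and Myc, with differences (CD8 minus Treg, log2) of -1.13 for Il2ra, -2.10 for Csf2, -1.15 for Snrpd3, -1.04 for C1qbp, -1.89 for Srxn1 and -0.955 for Myc. In Treg the agonist libraries differ from DMSO in the WT number too, apart from WMS-200, so agonist and WT number cannot be told apart.

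Single libraries stood far from the other 5 of their cell type in 22 of 320 sets of 6 CPM values, where chance gives about 1 in 20. In CD8 DMSO stood below the rest for Entpd1 (0.844 against 1.39 to 1.703). In CD8 WMS-200 stood above the rest for Ctsw (88.6 against 70.5 to 75.3). In CD8 WMS-64 stood above the rest for Cd3d (289 against 232 to 252), Cd79b (7.24 against 3.15 to 4.45), Rps3a1 (3848 against 2818 to 3199.6) and S100a6 (244 against 179 to 202). In CD8 WMS-75 stood above the rest for Il10 (2.78 against 0.701 to 1.48) and Tgfb2 (10.7 against 7.79 to 8.77). In CD8 WMS-76 stood above the rest for Satb1 (1295 against 1225 to 1249.9). In CD8 WMS-83 stood above the rest for Rara (35.3 against 29.8 to 31.9). In Treg DMSO stood below the rest for Ebi3 (14.6 against 20.2 to 23.5), Icos (90.9 against 115 to 123) and Srxn1 (1.37 against 3.57 to 4.88). In Treg WMS-200 stood above the rest for Nkain1 (0.589 against 0 to 0.1599), Pfkfb3 (137 against 101 to 111) and Prf1 (1.404 against 0.138 to 0.548). In Treg WMS-200 stood below the rest for S100a6 (1.54 against 2.88 to 3.68). In Treg WMS-64 stood above the rest for Ccl9 (0.6901 against 0 to 0.247). In Treg WMS-75 stood above the rest for Gzma (0.0533 against 0) and Havcr2 (1.23 against 0.506 to 0.7697). In Treg WMS-76 stood above the rest for Gzmc (1.83 against 0.2300 to 0.592). In Treg WMS-83 stood above the rest for Zbtb7b (182 against 128 to 147).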

How the results depend on the processing

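Of 4 counts of calls between CD8 and Treg, those without a fold limit stayed within 1.5 times under every alternative run. With 1 library left out, 5957 to 6082 genes were higher in CD8 and 6144 to 6366 in Treg, and at least 4-fold 1015 to 1123 and 1189 to 1453. Without a filter 1921 genes were at least 4-fold higher in Treg, at a minimum count of 50 it was 742, with 692 in CD8, and among protein-coding genes 664 were at least 4-fold higher in CD8. In the 12 libraries alone 5845 genes were higher in CD8 and 5655 in Treg with a block per compound and 5901 and 5846 with no replicate block.

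The agonist difference was less stable. Its 71 genes became 4 in the 12 libraries alone, 15 with RLE factors, 47 at a minimum count of 50, 200 with length offsets, 319 with DESeq2, 1 with limma-voom and 0 within WT number 3, and 10 to 1105 with 1 agonist library left out (10 without CD8 WMS-75 or CD8 WMS-83, 1105 without Treg WMS-200). The cause was not tested.

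Of genes named, those with a changed sign lie near 0. Without scaling factors Ccr7 was -0.000296, Ptprc -0.299, Smad4 -0.0898 and Tnfrsf18 -0.322. Ptprc was -0.139 with upper-quartile factors, -0.0460 at a minimum count of 50 and -0.0250 among protein-coding genes. Tnfrsf18 was -0.0958 with WT number as a term, -0.175 with number 2 alone, -0.159 with upper-quartile factors, -0.172 with length offsets, -0.0695 at a minimum count of 50, -0.0485 among protein-coding genes, -0.214 without the DMSO and WMS-200 libraries and -0.0575 to 0.0884 with 1 library left out. Tnfrsf4 was 0.0101 with the block and -0.104 to 0.0177 with 1 left out. No scaling factors and the fit without the DMSO and WMS-200 libraries were added after seeing the data.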
